A study of Arabidopsis thaliana with 8 samples.

Results

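The genes described here are 38 Arabidopsis thaliana genes of seed maturation and reserve mobilization, out of 27655 loci with a value in 8 RNA-seq libraries of shoot apices. They were named by locus as a list of 8 late embryogenesis abundant (LEA) genes, 8 storage protein genes, 8 genes of oil body proteins, 7 seed regulators, 3 genes of the glyoxylate cycle and gluconeogenesis, and 4 other seed genes. The list was proposed with the values of these same libraries in view, so the levels below are a description of the genes chosen, and no test over the list is given. The libraries formed 4 groups of 2. They were the knockdown line at 16 days of age, wild type at 16 days, the knockdown line at 10 days and wild type at 10 days. The knockdown line carried pFD::amiR-PECT1, an artificial microRNA against PECT1 driven by the promoter of FD. PECT1 encodes an enzyme of phosphatidylethanolamine synthesis, and FD encodes a bZIP transcription factor of the shoot apex. All plants were grown at 23 °C in short days on MS plates and were collected at ZT 8, with ZT counted in hours from lights on. The FD promoter is active in a part of the apex, whereas whole apices were measured. The labels leave unsaid how many transgenic lines were used and whether replicates were separate plant batches, so p-values measure only the spread between these samples, which may be technical.

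Late in seed development, the embryo stores protein in vacuoles and oil in oil bodies coated with oleosins, and it accumulates LEA proteins that protect cells during drying. This programme is driven by the transcription factors LEC1, LEC2, FUS3 and ABI3 together with abscisic acid signalling through ABI5, and it is switched off after germination. In the germinating seedling, stored oil is broken down by beta-oxidation, and the glyoxylate cycle (ICL and MLS) and phosphoenolpyruvate carboxykinase (PCK1) turn the resulting acetyl-CoA into sugar.

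Levels are given as RPKM, which scales reads to a kilobase of transcript and to a library of 1 M (mega) reads. The estimated depth was 15.46 to 18.16 M reads per library, so that 1 read on a transcript of 1 kb was worth 0.055 to 0.065 RPKM. Between 16180 and 16883 loci had at least 1 RPKM in a library, and the Pearson correlation between the 2 libraries of a group was 0.968 to 0.978 across genes. PECT1 (AT2G38670) had 34.4 and 37.0 RPKM in the day 16 knockdown libraries and 40.4 and 41.3 RPKM in the day 16 wild-type libraries. It had 35.3 and 37.1 RPKM in the day 10 knockdown libraries and 40.7 and 39.2 RPKM in the day 10 wild-type libraries. As deposited, all 4 knockdown libraries lay below all 4 wild-type libraries. After the libraries were rescaled by the median of ratios, PECT1 was at 38.9 and 34.4 in the knockdown line and 38.0 and 38.5 in wild type at day 16, so that these groups overlapped. At day 10 it was at 37.4 and 36.3 in the knockdown line and 42.0 and 38.6 in wild type (rescaled RPKM), without overlap. The labelled tissue was checked against marker genes: STM, KNAT1 and CLV1 of the shoot meristem were at 6.20 RPKM or more in every library, CLV3 did not exceed 0.72 RPKM and WUS did not exceed 0.23 RPKM, with CLV3 listed at 0 in 3 libraries and WUS in 5. FD, also on the list of meristem markers, had 2.49 and 2.57 RPKM in the knockdown line and 2.38 and 1.74 RPKM in wild type at day 16. At day 10 FD had 1.23 and 1.05 RPKM in the knockdown line and 1.73 and 2.23 RPKM in wild type. STM had 17.46 and 17.42 RPKM in the knockdown line and 12.33 and 12.6 RPKM in wild type at day 16. At day 10 STM had 6.49 and 9.05 RPKM in the knockdown line and 6.42 and 6.31 RPKM in wild type. KNAT1 was also higher in both knockdown libraries at day 16 and overlapped at day 10, and CLV1 overlapped at both ages. The summed level of 6 leaf mesophyll markers was 22048 to 29538 RPKM, and that of 4 root markers was 0 to 0.34 RPKM. That of 5 vasculature markers was 52.7 and 83.95 RPKM in the knockdown line and 49.97 and 59.86 RPKM in wild type at day 16. At day 10 it was 59.98 and 64.91 RPKM in the knockdown line and 60.59 and 46.61 RPKM in wild type. Replicate 1 of the knockdown line at day 16 stood apart in its mitochondrial transcripts, which summed to 264.4 RPKM against 106.4 to 159.0 RPKM in the other 7 libraries, and it had the lowest depth.

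The DNA upstream of these genes is shown first, because the seed programme is known to act through short elements there. In each line below, the 250 bases that end just before the annotated gene start are written 5′ to 3′ on the strand of the gene. They were read from the RefSeq TAIR10.1 genome, which holds an entry for all 38 genes. Capitals mark the RY element (CATGCA), which is bound by B3 factors of the ABI3, FUS3 and LEC2 kind, and the core of the abscisic acid response element (ACGTG), which is bound by bZIP factors of the ABI5 kind, each searched on both strands. The palindrome CACGTG counts as 2 matches of the core. The genes shown are the highest LEA, storage protein and other seed gene, among members whose window overlaps no other gene, together with PCK1 and ICL of the reserve mobilization genes. The windows lie at chr1:19619474-19619723 on the plus strand (LEA7), chr5:17758337-17758586 on the minus strand (CRA1), chr3:7656054-7656303 on the minus strand (ICL), chr4:17806706-17806955 on the minus strand (PCK1) and chr1:1244697-1244946 on the plus strand (AT1G04560).
LEA7: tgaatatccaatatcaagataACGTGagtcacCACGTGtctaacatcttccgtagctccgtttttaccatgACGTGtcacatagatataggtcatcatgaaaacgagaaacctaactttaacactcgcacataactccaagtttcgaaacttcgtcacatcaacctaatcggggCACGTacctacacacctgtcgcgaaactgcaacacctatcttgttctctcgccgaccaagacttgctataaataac
CRA1: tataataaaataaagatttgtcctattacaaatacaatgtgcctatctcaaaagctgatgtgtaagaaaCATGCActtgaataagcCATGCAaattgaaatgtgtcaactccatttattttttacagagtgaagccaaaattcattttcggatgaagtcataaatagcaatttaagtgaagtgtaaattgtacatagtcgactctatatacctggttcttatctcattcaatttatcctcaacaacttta
AT1G04560: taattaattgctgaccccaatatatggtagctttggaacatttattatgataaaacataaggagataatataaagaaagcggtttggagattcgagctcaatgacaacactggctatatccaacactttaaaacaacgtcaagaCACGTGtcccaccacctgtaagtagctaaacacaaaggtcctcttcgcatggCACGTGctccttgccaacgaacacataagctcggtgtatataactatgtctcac
ICL: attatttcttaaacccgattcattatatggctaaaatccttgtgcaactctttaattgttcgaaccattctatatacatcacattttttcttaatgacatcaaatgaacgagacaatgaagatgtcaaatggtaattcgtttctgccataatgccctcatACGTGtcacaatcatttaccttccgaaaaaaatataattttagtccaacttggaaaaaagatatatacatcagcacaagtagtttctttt
PCK1: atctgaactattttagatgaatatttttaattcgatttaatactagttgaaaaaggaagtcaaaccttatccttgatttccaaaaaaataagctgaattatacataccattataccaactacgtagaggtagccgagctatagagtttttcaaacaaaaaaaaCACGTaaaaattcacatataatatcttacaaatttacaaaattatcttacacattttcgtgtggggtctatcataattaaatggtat

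The window of the cruciferin gene CRA1 held 2 RY elements and no core of the abscisic acid response element. That of LEA7 held 5 matches of the core and that of AT1G04560 held 4, with no RY element in either. ICL and PCK1 each held 1 match of the core. Over all members, 20 of 38 windows (52.6%) held an RY element, against 8.43% of the windows of 27443 nuclear protein-coding genes. The core was found in 25 members (65.8%), against 22.9% of all genes, and both elements were found in 15 members (39.5%), against 2.22% of all genes. The RY element was in 8 of 8 oil body genes and 7 of 8 storage protein genes, but in 2 of 8 LEA genes, 1 of 7 regulators and 0 of 3 glyoxylate and gluconeogenesis genes. The core was in 6 of 8 LEA genes, 6 of 8 storage protein genes, 6 of 8 oil body genes, 2 of 3 glyoxylate and gluconeogenesis genes, 4 of 4 other seed genes and 1 of 7 regulators. These matches describe letters in the windows and not bound sites.

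Of the 38 genes, 17 reached 1 RPKM in some library of the knockdown line and in no wild-type library, and 8 reached 1 RPKM in a wild-type library. The genes with at least 1 RPKM numbered 13 and 23 of 38 in the day 16 knockdown libraries and 5 and 5 in the day 16 wild-type libraries. At day 10 they numbered 20 and 4 in the knockdown libraries and 2 and 4 in the wild-type libraries. Over all loci, 16253 and 16851 had at least 1 RPKM in the day 16 knockdown libraries and 16839 and 16883 in the day 16 wild-type libraries. At day 10 the numbers over all loci were 16180 and 16605 in the knockdown libraries and 16273 and 16628 in the wild-type libraries. Another 13 stayed under 1 RPKM in all 8 libraries, 3 of them (CRU2, SESA3 and LEC1) listed at 0 throughout, and 25 reached 1 RPKM somewhere, 17 of them 5 RPKM. The highest value fell in knockdown replicate 2 of day 16 for 14 genes, counting a tie with wild type for FUS3, and in knockdown replicate 1 of day 10 for 13. It fell in each of the other knockdown libraries for 2 genes and in a wild-type library for 4. Thus most of the highest values lay in 2 of the 4 knockdown libraries, 1 at each age. The genes were chosen with these values in view, so these counts are a description. The shares of all loci were not counted for the 17 genes or for the place of the highest value. In whole apices, fewer cells of a type and less RNA per cell cannot be told apart.

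PCK1, by far the most abundant of the 38 transcripts, was left out of a sum over the list to show the others. The other 37 genes summed to 41.7 and 141 RPKM in the day 16 knockdown libraries, against 9.55 and 23.2 RPKM in the day 16 wild-type libraries. They summed to 188 and 13.2 RPKM in the day 10 knockdown libraries, against 5.75 and 7.63 RPKM in the day 10 wild-type libraries. As group means these were 91.3 ± 70.2 RPKM in the knockdown line and 16.4 ± 9.69 RPKM in wild type at day 16, and 101 ± 123 RPKM in the knockdown line and 6.69 ± 1.33 RPKM in wild type at day 10 (SD, n = 2 each). The knockdown libraries all lay above the wild-type libraries of their own age, but the day 10 replicate 2 library of the knockdown line lay below the higher day 16 wild-type library. ABI5 alone held 4.96 RPKM in the former library and 10.4 RPKM in the latter, and MLS held 1.77 RPKM in the former. In the former, the LEA, storage protein and oil body sums were 1.16, 1.28 and 2.59 RPKM, against at most 0.91, 0.06 and 2.05 RPKM in day 10 wild type. The other seed genes summed to 0.03 RPKM there, below 0.16 and 0.26 RPKM in day 10 wild type. The median over all 38 genes was 0.285 and 2.07 RPKM in the day 16 knockdown libraries, 1.33 RPKM in replicate 1 of the day 10 knockdown line, and 0 in the other 5 libraries. The median over all 27655 loci was 2.38 to 3.23 RPKM.

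**Figure D1:**
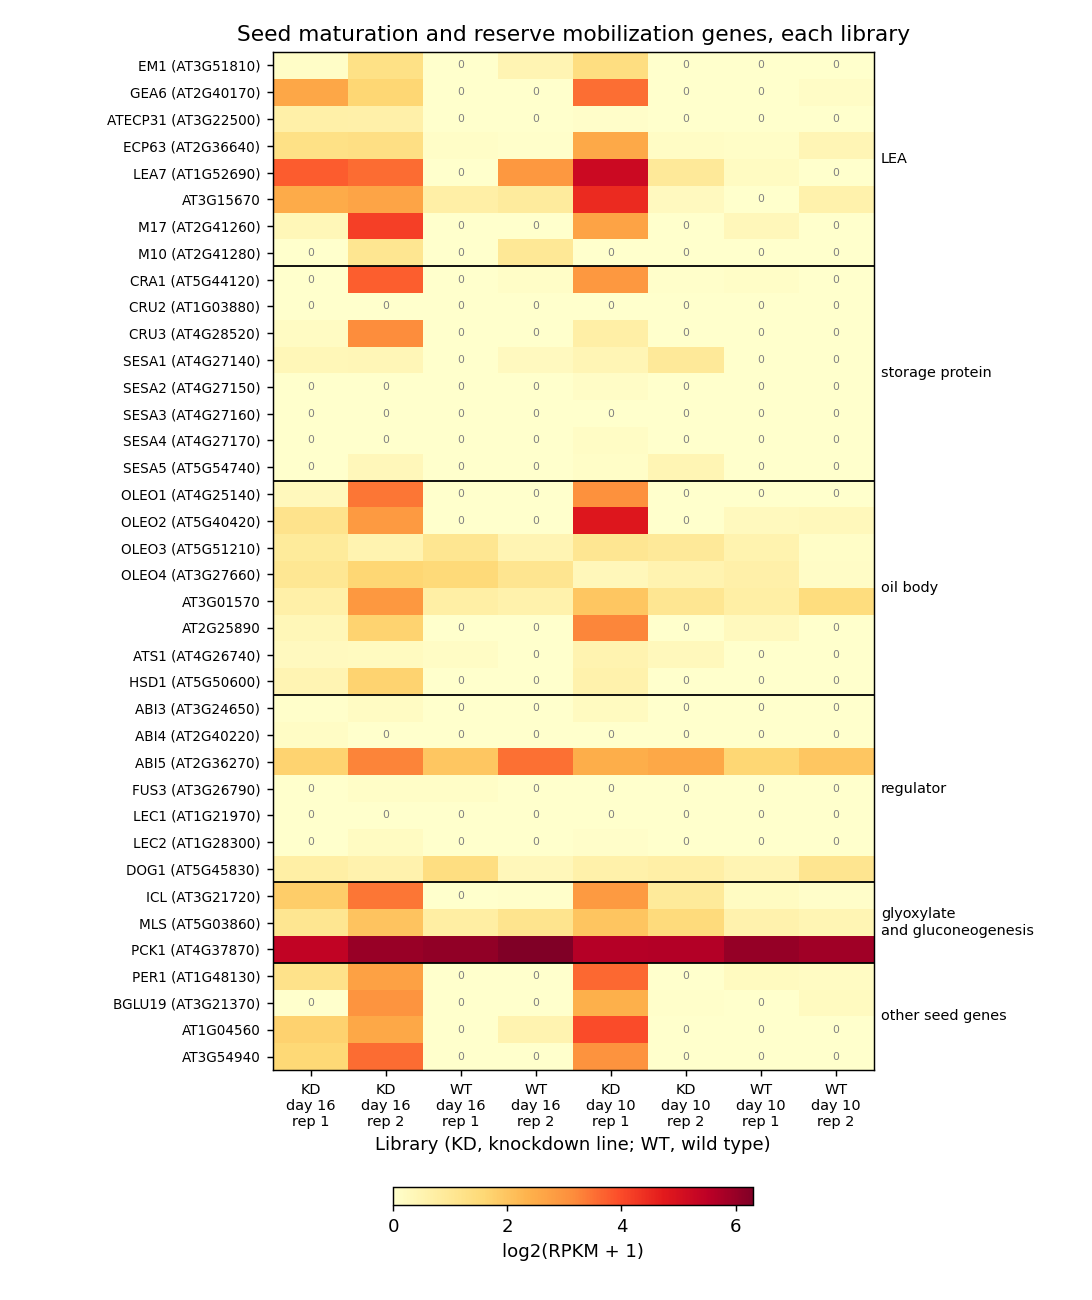
Heat map of log2(RPKM + 1) for the 38 genes (rows, grouped by role) in the 8 libraries (columns), with 0 written where a gene was listed at 0. The warm cells outside PCK1 and ABI5 lie mostly in replicate 2 of the day 16 knockdown line and replicate 1 of the day 10 knockdown line.

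Among the LEA, storage protein, oil body and other seed genes, the 8 LEA genes had the highest summed level in both day 16 knockdown libraries, in replicate 2 of the day 16 wild type and in replicate 1 of the day 10 knockdown line. In the other 4 libraries the oil body sum was higher than the LEA sum. LEA proteins are hydrophilic proteins thought to protect membranes and enzymes in the dry embryo. LEA7 (AT1G52690) had 12.4 and 10.8 RPKM in the day 16 knockdown libraries, against 0 and 6.56 RPKM in the day 16 wild-type libraries. At day 10 it had 35.9 and 0.89 RPKM in the knockdown libraries, against 0.13 and 0 RPKM in the wild-type libraries. It was above wild type in both knockdown libraries at each age, although replicate 2 of the day 16 wild type exceeded replicate 2 of the day 10 knockdown line. AT3G15670, which RefSeq names as another LEA family protein, had 4.63 and 5.24 RPKM in the knockdown line and 0.61 and 0.80 RPKM in wild type at day 16, and 21.1 and 0.17 RPKM in the knockdown line and 0 and 0.50 RPKM in wild type at day 10. Its day 10 groups overlapped. GEA6 (AT2G40170, also called EM6), a small LEA protein of the late embryo, had 5.03 and 2.07 RPKM in the knockdown line and 0 and 0 RPKM in wild type at day 16, and 10.6 and 0 RPKM in the knockdown line and 0 and 0.08 RPKM in wild type at day 10. M17 (AT2G41260) had 0.28 and 16.8 RPKM in the day 16 knockdown libraries and 5.37 and 0 RPKM in the day 10 knockdown libraries. In wild type it had 0 and 0 RPKM at day 16 and 0.25 and 0 RPKM at day 10. M17 was therefore high in the same 2 libraries as the rest but, unlike LEA7, AT3G15670 and GEA6, near 0 in replicate 1 of the day 16 knockdown line. The other 4 LEA genes (EM1, ATECP31, ECP63 and M10) stayed below 5 RPKM, with ECP63 the highest of them at 4.87 RPKM in replicate 1 of the day 10 knockdown line. Summed over the 8 LEA genes, the levels were 24.4 and 39.6 RPKM in the knockdown line and 0.68 and 8.74 RPKM in wild type at day 16, and 79.5 and 1.16 RPKM in the knockdown line and 0.45 and 0.91 RPKM in wild type at day 10.

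Among the storage proteins, the cruciferin genes CRA1 and CRU3 reached 5 RPKM in a library, and none of the 5 genes of 2S albumins reached 1 RPKM. CRA1 (AT5G44120), a 12S cruciferin, had 0 and 12.4 RPKM in the knockdown line and 0 and 0.06 RPKM in wild type at day 16, and 6.59 and 0.03 RPKM in the knockdown line and 0.06 and 0 RPKM in wild type at day 10. Only 1 knockdown library at each age held it at more than 0.1 RPKM, so that both pairs of groups overlapped. CRU3 (AT4G28520), another cruciferin, had 0.11 and 7.84 RPKM in the day 16 knockdown libraries and 0.59 and 0 RPKM in the day 10 knockdown libraries, against 0 RPKM in all 4 wild-type libraries. CRU2, the remaining cruciferin gene of the list, was listed at 0 in every library. The 5 albumin genes SESA1 to SESA5, which code for small sulfur-rich storage proteins, did not exceed 0.90 RPKM in any library, the highest value being that of SESA1 in replicate 2 of the day 10 knockdown line. SESA1 to SESA4 share 2.28% to 9.08% of their 31-base words with other loci.

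The summed level of the 8 oil body genes was 4.75 and 29.9 RPKM in the knockdown line and 3.69 and 2.01 RPKM in wild type at day 16, and 48.8 and 2.59 RPKM in the knockdown line and 2.02 and 2.05 RPKM in wild type at day 10. It was highest in the same pair of knockdown libraries, but the 2 highest values of OLEO3, OLEO4 and ATS1 did not both fall in that pair. OLEO2 (AT5G40420), an oleosin of the oil body surface, had 1.26 and 6.37 RPKM in the knockdown line and 0 and 0 RPKM in wild type at day 16, and 27.9 and 0 RPKM in the knockdown line and 0.19 and 0.24 RPKM in wild type at day 10. OLEO1 (AT4G25140), the best studied seed oleosin, had 0.21 and 9.83 RPKM in the day 16 knockdown libraries and 7.38 and 0 RPKM in the day 10 knockdown libraries, against 0 RPKM in all 4 wild-type libraries. Both were above wild type in each day 16 knockdown library and overlapped wild type at day 10. AT2G25890, named as an oleosin family protein, had 0.29 and 2.20 RPKM in the knockdown line and 0 and 0 RPKM in wild type at day 16, and 8.45 and 0 RPKM in the knockdown line and 0.20 and 0 RPKM in wild type at day 10. Its transcript lies wholly within sequence annotated also to the overlapping locus AT2G25880, so its reads cannot be assigned to it alone. AT3G01570, another oleosin family gene, had 0.56 and 6.63 RPKM in the knockdown line and 0.62 and 0.50 RPKM in wild type at day 16, and 2.89 and 1.06 RPKM in the knockdown line and 0.64 and 1.66 RPKM in wild type at day 10, so that its groups overlapped at both ages. The other 4 genes (OLEO3, OLEO4, HSD1 and the caleosin gene ATS1) stayed at or below 2.24 RPKM. OLEO3 (AT5G51210), an oleosin, had 0.84 and 0.43 RPKM in the knockdown line and 1.10 and 0.38 RPKM in wild type at day 16, and 1.07 and 0.90 RPKM in the knockdown line and 0.45 and 0.07 RPKM in wild type at day 10, with its highest value in a wild-type library. OLEO4 (AT3G27660), another oleosin, had 1.03 and 2.07 RPKM in the knockdown line and 1.87 and 1.13 RPKM in wild type at day 16, and 0.25 and 0.42 RPKM in the knockdown line and 0.54 and 0.08 RPKM in wild type at day 10, which places all 4 day 16 libraries above all 4 day 10 libraries. HSD1, an oil body steroleosin, is identical over its whole transcript to a second locus, so the split of reads between the copies is uncertain.

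The 4 other seed genes were high in the same libraries. PER1 (AT1G48130), a peroxiredoxin of the seed, had 1.28 and 5.56 RPKM in the knockdown line and 0 and 0 RPKM in wild type at day 16, and 11.2 and 0 RPKM in the knockdown line and 0.16 and 0.11 RPKM in wild type at day 10. AT1G04560, an AWPM-19-like membrane protein, had 2.27 and 4.96 RPKM in the knockdown line and 0 and 0.41 RPKM in wild type at day 16, and 14.8 and 0 RPKM in the knockdown line and 0 and 0 RPKM in wild type at day 10. AT3G54940, a papain family cysteine protease, had 1.95 and 10.9 RPKM in the day 16 knockdown libraries and 7.09 and 0 RPKM in the day 10 knockdown libraries, against 0 RPKM in all 4 wild-type libraries. These genes lay above wild type in both day 16 knockdown libraries and at 0 in replicate 2 of the day 10 knockdown line. BGLU19 (AT3G21370), a beta-glucosidase, had 0 and 6.96 RPKM in the knockdown line and 0 and 0 RPKM in wild type at day 16, and 4.27 and 0.03 RPKM in the knockdown line and 0 and 0.15 RPKM in wild type at day 10. The BGLU19 transcript shares 22.1% of its 31-base words with the locus AT3G21360, so some of its reads may not be its own.

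**Figure D2:**
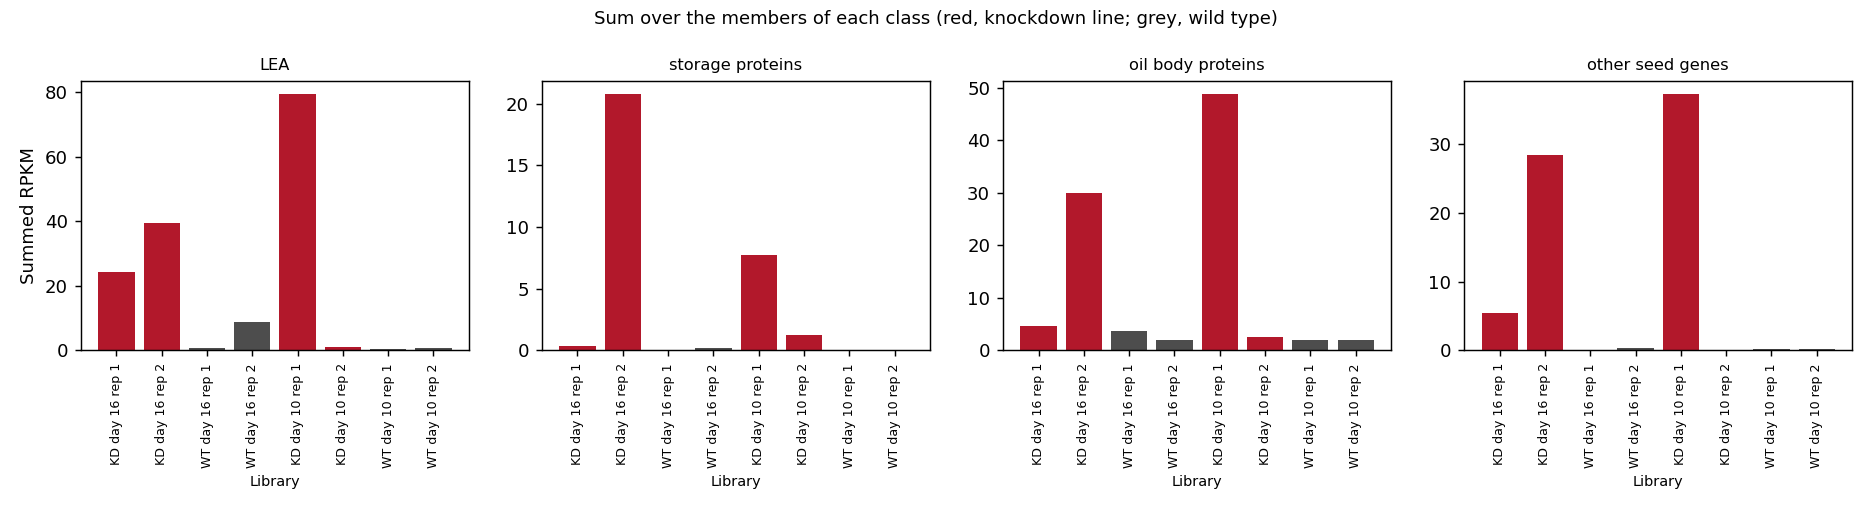
Summed RPKM per library (bars) over the 8 LEA, 8 storage protein, 8 oil body and 4 other seed genes, with a vertical scale of its own for each panel. In each panel the highest bars are replicate 2 of the day 16 knockdown line and replicate 1 of the day 10 knockdown line, and replicate 1 of the day 16 knockdown line reaches 24.4 RPKM for the LEA genes and at most 5.50 RPKM in the other panels.

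The transcription factors that drive seed maturation stayed near 0. ABI3 (AT3G24650), a B3 factor, had 0.02 and 0.11 RPKM in the day 16 knockdown libraries and 0.15 and 0 RPKM in the day 10 knockdown libraries, against 0 RPKM in all 4 wild-type libraries. LEC2 (AT1G28300), a B3 factor of embryogenesis, had 0 and 0.13 RPKM in the day 16 knockdown libraries and 0.04 and 0 RPKM in the day 10 knockdown libraries, against 0 RPKM in all 4 wild-type libraries. FUS3 (AT3G26790), another B3 factor, was at 0.07 RPKM in replicate 2 of the day 16 knockdown line and in replicate 1 of the day 16 wild type and at 0 in the other 6 libraries. ABI4 (AT2G40220), an AP2-type factor of abscisic acid and sugar responses, was at 0.10 RPKM in replicate 1 of the day 16 knockdown line and at 0 elsewhere. LEC1 (AT1G21970), a subunit of a CCAAT-binding factor, was listed at 0 in every library. At these levels a gene is represented by a few reads, and none of these 5 regulators entered the fit described below. ABI3 lay above wild type in both day 16 knockdown libraries.

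ABI5 and DOG1 were expressed in both genotypes. ABI5 (AT2G36270), the bZIP factor of abscisic acid responses in seeds and seedlings, had 2.24 and 8.64 RPKM in the knockdown line and 2.86 and 10.4 RPKM in wild type at day 16, and 4.49 and 4.96 RPKM in the knockdown line and 2.08 and 2.86 RPKM in wild type at day 10. Its day 10 knockdown libraries both lay above wild type, and at day 16 replicate 2 of both genotypes was high. DOG1 (AT5G45830), a regulator of seed dormancy, had 0.63 and 0.48 RPKM in the knockdown line and 1.59 and 0.27 RPKM in wild type at day 16, and 0.51 and 0.60 RPKM in the knockdown line and 0.37 and 1.14 RPKM in wild type at day 10, and its groups overlapped at both ages. A list of 13 other seed and abscisic acid regulators, among them WRI1, HSI2, ABI1 and AFP1, summed to 79.1 and 212 RPKM in the knockdown line and 118 and 153 RPKM in wild type at day 16, and to 70.8 and 134 RPKM in the knockdown line and 69.8 and 77.7 RPKM in wild type at day 10. Of the 11 tested with limma, 0 passed at either age and 0 had an unadjusted p under 0.05. Of all genes, 1.41% were higher and 4.96% lower at that level at day 16, and 3.12% and 3.54% at day 10.

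Of the reserve mobilization genes, ICL and MLS had the higher group means in the knockdown line and PCK1 the lower ones at both ages, although none of these differences passed the test given below. ICL (AT3G21720), the isocitrate lyase of the glyoxylate cycle, had 2.51 and 9.85 RPKM in the knockdown line and 0 and 0.03 RPKM in wild type at day 16, and 6.30 and 0.86 RPKM in the knockdown line and 0.13 and 0.05 RPKM in wild type at day 10. All 4 knockdown libraries thus lay above all 4 wild-type libraries, including the day 10 replicate in which most seed maturation genes were at or near 0. MLS (AT5G03860), the malate synthase of the same cycle, had 1.10 and 3.03 RPKM in the knockdown line and 0.66 and 1.19 RPKM in wild type at day 16, and 2.95 and 1.77 RPKM in the knockdown line and 0.48 and 0.36 RPKM in wild type at day 10. It did not overlap between genotypes at day 10 and overlapped at day 16. PCK1 (AT4G37870), the carboxykinase that commits carbon to gluconeogenesis, had 41.8 and 62.3 RPKM in the knockdown line and 67.1 and 78.5 RPKM in wild type at day 16, and 47.8 and 48.5 RPKM in the knockdown line and 64.5 and 57.7 RPKM in wild type at day 10. Its groups did not overlap at either age. After rescaling the libraries by the median of ratios, PCK1 was at 47.2 and 57.9 in the knockdown line and 63.2 and 73.2 in wild type at day 16, and at 50.6 and 47.4 in the knockdown line and 66.5 and 56.7 in wild type at day 10 (rescaled RPKM), still without overlap.

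**Figure D3:**
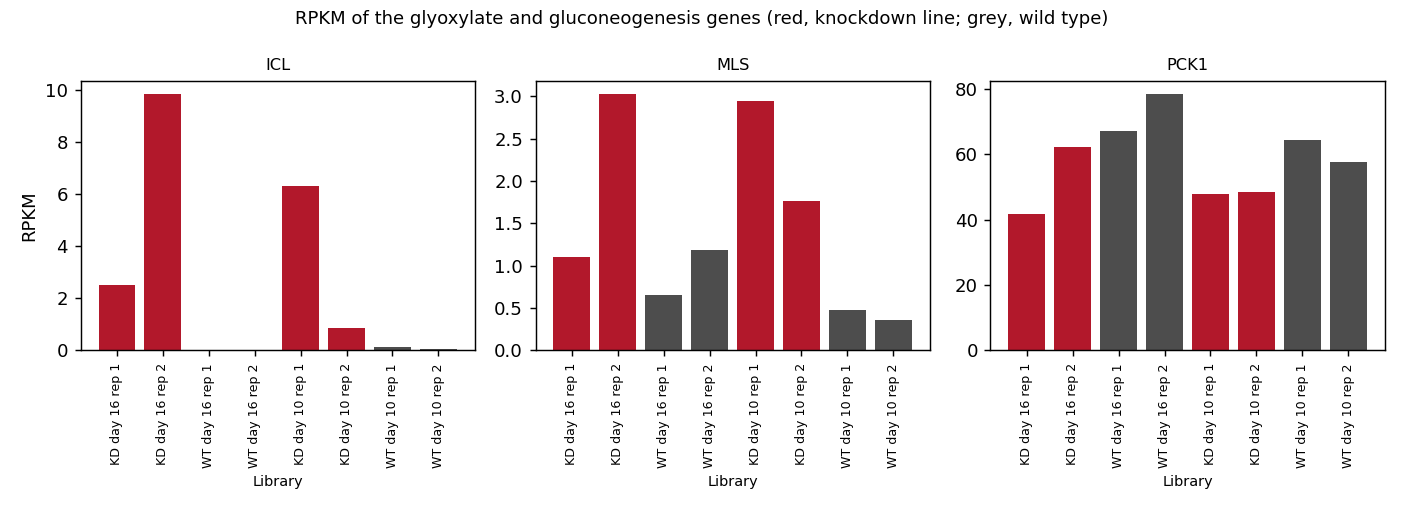
RPKM per library (bars) of ICL, MLS and PCK1, with a vertical scale of its own for each gene. ICL is at 0.86 RPKM or more in all 4 knockdown libraries and at most 0.13 RPKM in wild type, whereas PCK1 is at 41.8 to 62.3 RPKM in the knockdown line and 57.7 to 78.5 RPKM in wild type.

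The enzymes around these steps did not share the levels of ICL and MLS. A list of 14 genes of lipolysis and fatty acid beta-oxidation, among them the lipase gene SDP1 and the thiolase gene PKT3, summed to 231 and 307 RPKM in the knockdown line and 311 and 319 RPKM in wild type at day 16, and to 238 and 244 RPKM in the knockdown line and 268 and 268 RPKM in wild type at day 10. The sums in the knockdown line were below those in wild type at both ages. None of the 14 genes passed the test described below at either age, with 0 at day 16 and 1 lower at day 10 at an unadjusted p under 0.05. Of all genes, 4.96% were lower at day 16 and 3.54% at day 10 at that level. The other 10 genes of the glyoxylate cycle and gluconeogenesis, such as the citrate synthase gene CSY2 and the fructose bisphosphatase gene FBP, summed to 340 and 415 RPKM in the knockdown line and 410 and 380 RPKM in wild type at day 16, and to 368 and 349 RPKM in the knockdown line and 398 and 410 RPKM in wild type at day 10. Of the 9 that were tested, 0 passed at either age and 1 was lower at an unadjusted p under 0.05 at each age, beside the same shares of all genes. As deposited, both knockdown libraries lay below both wild-type libraries for 8 of the 14 genes at day 16 and 6 at day 10. They did so for 2 of the 10 genes at day 16 and 7 at day 10. Of all loci, 18.8% did so at day 16 and 15.3% at day 10. Above wild type lay 0 of the 14 at either age, and 2 of the 10 at day 16 and 0 at day 10. Of all loci, 6.75% lay above at day 16 and 14.1% at day 10.

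A separate list of 16 further seed maturation genes, likewise not chosen blind to these data, showed the same libraries as high. Their sum was 17.2 and 43.8 RPKM in the knockdown line and 2.71 and 1.85 RPKM in wild type at day 16, and 60.3 and 0.88 RPKM in the knockdown line and 1.25 and 2.14 RPKM in wild type at day 10. TIP3;1 (AT1G73190), an aquaporin of the storage vacuole, had 0.49 and 7.05 RPKM in the knockdown line and 0 and 0 RPKM in wild type at day 16, and 14.7 and 0 RPKM in the knockdown line and 0.05 and 0 RPKM in wild type at day 10. LEA18 (AT2G35300), a LEA protein, had 6.43 and 8.86 RPKM in the knockdown line and 0 and 0 RPKM in wild type at day 16, and 14.4 and 0.09 RPKM in the knockdown line and 0.36 and 0 RPKM in wild type at day 10. Both knockdown libraries exceeded both wild-type libraries for 11 of the 16 genes at day 16, where 6.75% of all loci did so, and for 2 of the 16 at day 10, where 14.1% of all loci did so. With limma, 0 of the 9 tested passed at either age, and 4 were higher at day 16 and 1 at day 10 at an unadjusted p under 0.05, against 1.41% and 3.12% of all genes. Upstream windows held an RY element in 10 of the 16 and the core of the abscisic acid response element in 12. Over all nuclear protein-coding genes the shares were 8.43% and 22.9%.

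**Figure D4:**
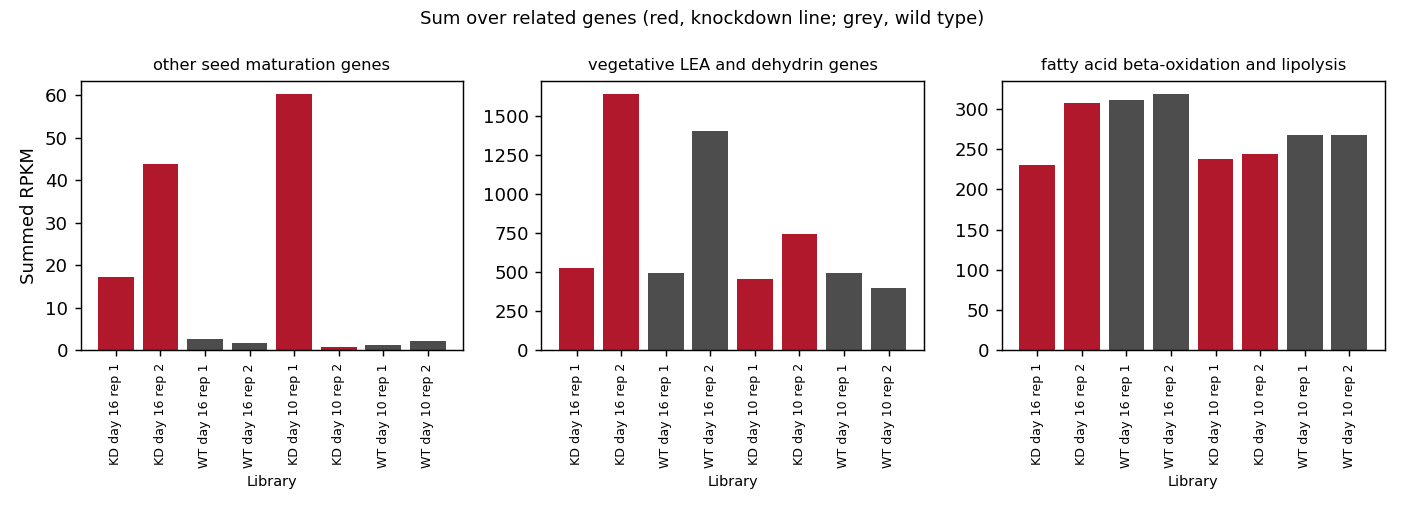
Summed RPKM per library (bars) over 16 other seed maturation genes, 9 LEA and dehydrin genes of vegetative tissue and 14 genes of lipolysis and beta-oxidation, with a vertical scale of its own for each panel. The first panel has its highest bars in replicate 2 of the day 16 knockdown line and replicate 1 of the day 10 knockdown line, and the second in replicate 2 of both day 16 groups (1640 and 1401 RPKM).

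Without a model, the genotypes were compared by whether their libraries overlapped. At day 16, both knockdown libraries exceeded both wild-type libraries for 18 of the 38 genes, where 6.75% of all loci did so, and lay below them for 1 (PCK1), where 18.8% of all loci did so. At day 10, the knockdown libraries were above wild type for 8 of 38 (LEA7, SESA1, SESA5, OLEO3, ATS1, ABI5, ICL and MLS), where 14.1% of all loci were, and below for PCK1 alone, where 15.3% of all loci were. With both ages pooled, SESA1, ATS1 and ICL were above wild type in every knockdown library, 3 of 38 where 1.25% of all loci were, and 0 of 38 were below, where 3.42% of all loci were. SESA1 and ATS1 stayed under 1 RPKM throughout. After rescaling by the median of ratios, the counts above wild type were 20 at day 16, where 12.5% of all loci lay above, and 8 at day 10, where 14.7% did. Leaving out 1 library makes it easier not to overlap for every locus. Without replicate 1 of the day 16 knockdown line, 27 genes were above wild type at day 16, and so were 27.4% of all loci. At day 10 there were 29 when replicate 2 of the knockdown line was left out (21.6% of all loci), 8 when its replicate 1 was left out (29.9%), and 13 when replicate 2 of wild type was left out (24.7%). Because the list was drawn up with these libraries in view, nothing was read from these counts beyond the description.

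The fit across all genes called no difference for any of the 38. The limma fit on log2(RPKM + 1) took genes that reached 1 RPKM in 2 or more libraries, and 22 of the 38 entered, 14 of them through knockdown libraries alone. At an adjusted p under 0.05, 0 of 22 passed at day 16, where 0.115% of 17467 genes passed, and 0 of 22 passed at day 10, where 0.0744% passed. At an unadjusted p under 0.05, ICL, AT3G54940 and GEA6 were higher and PCK1 was lower in the knockdown line at day 16, against 1.41% of all genes higher and 4.96% lower. At day 10, MLS, ICL and LEA7 were higher at that level and 0 were lower, against 3.12% and 3.54% of all genes. The log2 fold change of ICL was 2.60 ± 0.626 (SE) at day 16 (limma adjusted p = 0.432) and 1.76 ± 0.626 at day 10 (limma adjusted p = 0.679). That of MLS at day 10 was 1.22 ± 0.353 (limma adjusted p = 0.614), and that of LEA7 was 2.97 ± 1.192 (limma adjusted p = 0.712). PCK1 differed by -0.50 ± 0.195 at day 16 (limma adjusted p = 0.762) and -0.33 ± 0.195 at day 10 (limma adjusted p = 0.764). Without replicate 1 of the day 16 knockdown line, the difference of PCK1 at day 16 was -0.22. Without replicate 2 of the day 10 knockdown line, 5 genes passed at day 10 (AT1G04560, AT3G15670, ECP63, GEA6 and OLEO2, lowest limma adjusted p 0.000986), where the lone remaining library was assumed to vary like the other groups. That fit called 26 of 17375 genes at day 10 (0.15%). All 5 reached 1 RPKM in knockdown libraries only, so they had passed the filter through the group in which they were high.

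No difference between the ages was called for these genes. In the knockdown line, both day 16 libraries exceeded both day 10 libraries for 2 of 38 genes (ATECP31 and OLEO4), where 12.3% of all loci did, and in wild type for 4 of 38 (AT3G15670, OLEO4, MLS and PCK1), where 23% did. In limma, 0 of the 22 genes tested passed for age in the knockdown line, where 0.269% of all genes passed, or in wild type, where 0.223% passed. At an unadjusted p under 0.05, OLEO4 alone was higher at day 16, in the knockdown line (4.68% of all genes higher, 3.86% lower) and in wild type (5.55% higher, 1.91% lower). It had a log2 fold change of 0.91 ± 0.324 for day 16 over day 10 in the knockdown line (limma adjusted p = 0.429) and 0.94 ± 0.324 in wild type (limma adjusted p = 0.533). For the interaction of genotype and age, 0 of 22 passed and 0 of 22 had an unadjusted p under 0.05, while 0 of all 17467 genes passed and 0.584% were higher and 1.06% lower at that level.

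The 2 libraries of a group were then compared with each other. Of the 25 genes that reached 1 RPKM in some library, 17 did so in knockdown libraries only, so this choice in part fixes where they vary, and the values are a description. Over the 25 genes, the median absolute difference between the 2 libraries of a group was 1.23 on the log2(RPKM + 1) scale in the day 16 knockdown line and 0.08 in the day 16 wild type. It was 2.36 in the day 10 knockdown line and 0.12 in the day 10 wild type. Over all 18059 loci that reached 1 RPKM in some library it was 0.32 in the day 16 knockdown line, 0.21 in the day 16 wild type, 0.21 in the day 10 knockdown line and 0.22 in the day 10 wild type. Replicate 2 was the higher for 21 of the 25 genes in the day 16 knockdown line, and replicate 1 for 20 of the 25 in the day 10 knockdown line. The share of all loci with the same direction was not counted. The median-of-ratios factors of replicates 1 and 2 were 0.885 and 1.076 in the day 16 knockdown line. In the day 10 knockdown line they were 0.945 and 1.023. The replicates differed by more than the 95th percentile of those loci for 15 of the 25 genes in the day 16 knockdown line and 4 in the day 16 wild type, and for 16 in the day 10 knockdown line and 0 in the day 10 wild type. The largest difference was 4.85, for OLEO2 in the day 10 knockdown line.

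The 2 libraries with most seed transcripts did not hold them in the same proportions. Of the 19 genes with at least 1 RPKM in both, 9 were higher in replicate 1 of the day 10 knockdown line and 10 in replicate 2 of the day 16 knockdown line, and the ratio of the day 10 level to the day 16 level ran from 0.319 for M17 to 5.13 for GEA6. LEA7, OLEO2, AT3G15670, PER1 and AT1G04560 were higher in the day 10 library. M17, CRA1, OLEO1, ICL and AT3G54940 were higher in the day 16 library. CRU3 was at 0.59 RPKM in the day 10 library against 7.84 RPKM in the day 16 library. Markers of the germinating seed endosperm gave mixed values beside these: EPR1 was at 1.92 RPKM and EXPA2 at 1.49 RPKM in the day 10 library, with at most 0.28 and 0.38 RPKM in the other 7. MAN7 was at 9.06 RPKM in the day 16 library but also at 7.70 RPKM in replicate 2 of the day 16 wild type. The 3 endosperm markers summed to 1.49 and 9.50 RPKM in the knockdown line and 2.79 and 7.70 RPKM in wild type at day 16, and to 4.31 and 1.62 RPKM in the knockdown line and 0.97 and 2.33 RPKM in wild type at day 10. Their part in the levels of the 38 genes was not tested.

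**Figure D5:**
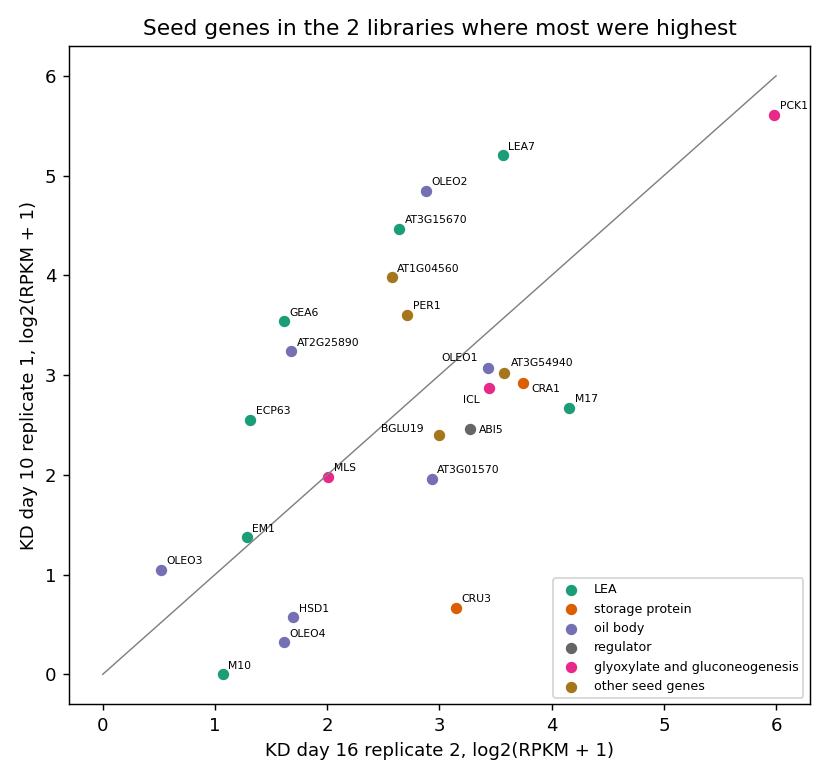
Level in replicate 1 of the day 10 knockdown line (vertical axis) against replicate 2 of the day 16 knockdown line (horizontal axis), both as log2(RPKM + 1), for genes with at least 1 RPKM in either, coloured by role, with a line of equal levels. Genes lie on both sides of the line, with GEA6 far above it and CRU3 far below.

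Across the whole table, few loci had the same pattern. The rule for it was set from the libraries in which most of the 38 genes were highest. The number of the 38 genes that met it is therefore in part fixed by that choice, and is a description. At least 1 RPKM in replicate 2 of the day 16 knockdown line and replicate 1 of the day 10 knockdown line, with less than 1 RPKM in all wild-type libraries and in replicate 2 of the day 10 knockdown line, was found for 46 loci, 0.166% of all. Of these, 14 were among the 38 genes and 8 among the 16 other seed maturation genes. The 24 others included SMP1 (AT3G12960), named for a seed maturation protein, and HVA22B (AT5G62490), of a family induced by abscisic acid. They also included loci not named for seeds, such as the flower development genes LFY (AT5G61850) and PI (AT5G20240). LFY had 0.23 and 1.0 RPKM in the knockdown line and 0.45 and 0.30 RPKM in wild type at day 16. At day 10 it had 1.15 and 0.80 RPKM in the knockdown line and 0.67 and 0.49 RPKM in wild type. PI had 0.69 and 1.65 RPKM in the knockdown line and 0.30 and 0.22 RPKM in wild type at day 16. At day 10 it had 1.35 and 0.66 RPKM in the knockdown line and 0.22 and 0.26 RPKM in wild type. Both were thus above 0 in every library and met the rule by lying on either side of 1 RPKM. SMP1 had 0.17 and 2.34 RPKM in the knockdown line and 0 and 0 RPKM in wild type at day 16, and 1.09 and 0 RPKM in the knockdown line and 0 and 0.30 RPKM in wild type at day 10. HVA22B had 0 and 1.98 RPKM in the day 16 knockdown libraries and 5.15 and 0 RPKM in the day 10 knockdown libraries, against 0 RPKM in all 4 wild-type libraries. All the loci named here were picked after their values were seen, SMP1 and HVA22B for their link to seeds or abscisic acid. When replicate 1 of the day 16 knockdown line was also required to reach 1 RPKM, 16 loci remained (0.0579%), 8 of them among the 38 genes. Upstream windows held an RY element in 41.3% of the 46 loci and the core of the abscisic acid response element in 65.2%. Over all nuclear protein-coding genes the shares were 8.43% and 22.9%. The 46 loci include the 14 and 8 genes given above, whose windows were already counted, so these shares are not a separate result.

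In the authors' deposited tables of genes called higher in the knockdown line, 14 of the 38 genes were listed at day 16 and 14 at day 10, where the tables held 0.763% and 1.16% of all loci. The same 12 genes stood in both tables, 85.7% of each list of 14, and none of the 38 was in the authors' deposited tables of lower genes, which held 0.77% of all loci at day 16 and 1.2% at day 10. The 2 comparisons have no libraries in common, but the 38 genes were chosen with the libraries of both in view. The shares listed and the overlap are therefore a description and not independent support. Listed at both ages were ICL, CRA1, ECP63, AT3G54940, AT1G04560, M17, CRU3, OLEO1, PER1, AT3G15670, GEA6 and MLS. HSD1 and ATECP31 were listed at day 16 alone and LEA7 and EM1 at day 10 alone. The authors' deposited table gave ICL a fold of 396.78 (p = 2.52e-09 as deposited) at day 16 and 39.73 (p = 5.11e-10 as deposited) at day 10. For LEA7 the authors' deposited table gave a fold of 266.56 (p = 1.43e-08 as deposited) at day 10. Its folds for AT3G15670 were 7.66 at day 16 and 45.19 at day 10, and for MLS 2.39 at day 16 and 5.75 at day 10, again from the authors' deposited table. Of the 14 genes in the authors' deposited table for day 16, 12 had both knockdown libraries above both wild-type libraries and 6 had a knockdown library under 1 RPKM. Of the 14 in that for day 10, 3 had both knockdown libraries above wild type (LEA7, ICL and MLS), and 13 had a knockdown library under 1 RPKM. Of the 16 further seed maturation genes, the authors' deposited tables of higher genes listed 11 at day 16 (68.8%) and 9 at day 10 (56.2%). Those shares were larger than the 36.8% of the 38 genes at each age. Of the 9 LEA and dehydrin genes of vegetative tissue 1 and 3 were listed, and of the 13 other regulators 0 and 1.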

How the data were processed

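The authors deposited RPKM values for 27655 loci in 8 libraries, per the file headers; the file is named for RPM, but low values step by 1 read per transcript length, so the values were used as RPKM. Depth was estimated from those steps (94.6% to 98.6% of low values within 0.1 of a whole read), and intervals for single values are not given. Per the submitters' processing notes, the genome build was TAIR10. The aligner, the counting, its use of strand and the test behind the authors' tables were not given in the sources used here. Besides, 4 tables of called genes deposited by the authors hold a linear fold ratio for higher genes, a signed score (the fold with a minus sign) for lower genes, and a p-value, per the file headers.

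Members and lists were chosen with earlier results of these data known. Members were described by role: values are given for those reaching 5 RPKM, the regulators and the glyoxylate genes. The 17467 genes reaching 1 RPKM in 2 or more libraries were fitted with limma 3.58.1 (R 4.3.3, intensity trend) on log2(RPKM + 1), which understates changes of low genes; the 4 groups shared a spread (4 residual and 5.8 prior degrees of freedom), tests were two-sided, and p-values were adjusted by Benjamini-Hochberg over all genes. The fit was tested on simulated data. Groups and replicate numbers came from the sample titles, and names, positions and upstream bases from RefSeq TAIR10.1. Alternatives were the filter, the pseudocount, median-of-ratios scaling, a replicate block and leaving out each library. An upstream window of an oil body gene is not reported here.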

Additional observations from a re-analysis of the deposited data

How the results depend on the processing

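Of the 38 genes, 0 were called in any of the 5 contrasts under pseudocounts of 0.25 and 4, no filter, a filter of 5 RPKM, median-of-ratios scaling or a replicate block, and 0 to 5 were called at day 10 when each library was left out in turn (5 without replicate 2 of the day 10 knockdown line, 0 without any other). Leaving out a library gave 0 calls among them in the other 4 contrasts. The replicate numbers of the knockdown and wild-type libraries share only a number in the labels. The deviations of same-numbered libraries correlated at 0.30 at day 16 and 0.18 at day 10. With the replicate block, the calls over all genes were 20 for genotype at day 10, 109 for age in the knockdown line and 89 for age in wild type.

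Over all genes, 20 were called for genotype at day 16 (11 with no filter, 11 to 19 when each library was left out) and 13 at day 10 (7 to 26). For age in the knockdown line 47 were called (15 with no filter, 16 to 53 when each library was left out), and for age in wild type 39 (12 with no filter, 18 with median-of-ratios scaling, 7 to 54). The interaction gave 0 calls throughout, 0 to 0. The counts moved by over 1.5 times for genotype at day 16 without either wild-type library of day 16 or replicate 1 of the knockdown line (11 each), and at day 10 without replicate 2 of the knockdown line (26) or of wild type (7). For age they did so in the knockdown line without replicate 1 (22) or 2 (16) of day 16 or replicate 1 (25) or 2 (19) of day 10, and in wild type without replicate 1 (15) or 2 (7) of day 16 or replicate 1 (13) or 2 (10) of day 10. Median-of-ratios scaling at day 16 moved the median over all genes of the log2 fold change to -0.002, against -0.113 as deposited, and the value of PCK1 to -0.37, against -0.50.

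The summed level of all 38 genes was 143 ± 84.7 RPKM in the day 16 knockdown line (83.5 to 203 with a library left out) and 89.2 ± 17.7 RPKM in the day 16 wild type (76.7 to 102). It was 149 ± 123 RPKM in the day 10 knockdown line (61.8 to 236) and 67.8 ± 3.46 RPKM in the day 10 wild type (65.3 to 70.2; SD, n = 2 each). Without PCK1 the sums in wild type were 16.4 RPKM at day 16 and 6.69 RPKM at day 10. The count of genes above wild type without overlap, for which leaving out libraries was chosen after seeing the data, was 18 at day 16 (19 to 27 with a library left out) and 8 at day 10 (8 to 29). With 2 libraries a group and knockdown libraries that differ this much, the fit has little precision for these genes, and most of the 16 genes that were not tested stood for a few reads.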

Other observations

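The summed level of genes of drought and cold responses in vegetative tissue was highest in replicate 2 of both day 16 groups. The 9 LEA and dehydrin genes of vegetative tissue summed to 527 and 1640 RPKM in the knockdown line and 497 and 1401 RPKM in wild type at day 16, and to 459 and 745 RPKM in the knockdown line and 497 and 399 RPKM in wild type at day 10. ERD10, a dehydrin, had 69.1 and 560.8 RPKM in the knockdown line and 89.0 and 452 RPKM in wild type at day 16, and 50.4 and 184 RPKM in the knockdown line and 67.1 and 74.5 RPKM in wild type at day 10. RD20, a caleosin of leaves, had 0.31 and 54.1 RPKM in the knockdown line and 0.81 and 34.6 RPKM in wild type at day 16, and 0.84 and 6.63 RPKM in the knockdown line and 0.61 and 1.40 RPKM in wild type at day 10. Both were high in replicate 2 of both day 16 groups, and both were low in replicate 1 of the day 10 knockdown line, where the seed transcripts were high. AFP3, a binding partner of ABI5, had 3.59 and 50.9 RPKM in the knockdown line and 5.85 and 27.8 RPKM in wild type at day 16, and 4.29 and 18.8 RPKM in the knockdown line and 4.30 and 6.09 RPKM in wild type at day 10. RAB18, a dehydrin induced by abscisic acid, had 30.1 and 34.3 RPKM in the knockdown line and 7.08 and 5.77 RPKM in wild type at day 16, and 36.2 and 4.08 RPKM in the knockdown line and 6.32 and 7.08 RPKM in wild type at day 10. With limma, 0 of the 9 genes passed at either age, with 1 higher at day 16 (RAB18) and 0 at day 10 at an unadjusted p under 0.05. Of all genes, 1.41% were higher at day 16 and 3.12% at day 10 at that level. RAB18 was highest in both day 16 knockdown libraries and in replicate 1 of the day 10 knockdown line, the 3 libraries with the highest LEA sums of the seed list. LEA4-5, another LEA gene of the 9, had 1.43 and 8.11 RPKM in the knockdown line and 0.06 and 2.00 RPKM in wild type at day 16, and 8.79 and 0.13 RPKM in the knockdown line and 0.32 and 0 RPKM in wild type at day 10. It was highest in replicate 1 of the day 10 and replicate 2 of the day 16 knockdown line.

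The 10 genes outside the 38 with the largest excess of replicate 1 of the day 10 knockdown line, which had a mean log2(RPKM + 1) of 1.7517 over the 38 against 1.7476 in replicate 2 of the day 16 knockdown line, above the median of the other 7 libraries, and with at least 5 RPKM there, were listed as a description. The largest was AT3G17520, a LEA family gene, with 35.5 RPKM in that library and an excess of 5.07 on the log2(RPKM + 1) scale, and it had 11.4 RPKM in replicate 2 of the day 16 knockdown line. The others were AT5G35660 (glycine-rich), TIP3;1, LEA18, TSPO, AT1G68250, AT1G54870, AT3G02480 (LEA family), AT4G36600 and AT2G13547, with excesses of 3.13 to 4.13, of which TIP3;1, LEA18 and AT4G36600 were on the list of other seed maturation genes. AT1G68250, an uncharacterized protein, reached 85.0 RPKM in replicate 2 of the day 16 knockdown line, against 1.72 RPKM in replicate 1. AT3G02480 had 13.8 and 7.61 RPKM in the knockdown line and 4.10 and 5.18 RPKM in wild type at day 16, and 69.1 and 7.56 RPKM in the knockdown line and 4.52 and 6.14 RPKM in wild type at day 10. AT2G13547, also uncharacterized, had 10.3 and 16.8 RPKM in the knockdown line and 0 and 0.21 RPKM in wild type at day 16, and 9.59 and 8.64 RPKM in the knockdown line and 0 and 0 RPKM in wild type at day 10. Both lay above all 4 wild-type libraries in all 4 knockdown libraries, as did 1.25% of all loci. AT4G36600 did so too, at 0.25 RPKM or more against at most 0.08 RPKM. These genes were chosen for their excess in a knockdown library, which in part fixes that result.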
